A study of Drosophila melanogaster with 8 samples.

Results

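The genes *elB* (*elbow B*) and *noc* (*no ocelli*) were described by the Dll and Sp1 ChIP-seq peaks at their shared locus in *Drosophila* leg imaginal discs. All peaks of either deposited list that overlapped a window of 120 kb on chromosome arm 2L (dm3, 14390000 to 14510000) were taken. The window held 25 of the 12319 Dll peaks and 17 of the 9850 Sp1 peaks, so 42 of 22169 peaks in all. It was drawn around 4 reporter fragments named for these genes, *elB_In*, *elB_LE*, *noc_LE1* and *noc_LE2*. In these names LE stands for leg enhancer and In for intersection. No score entered the choice of the window. The paper, however, had picked the fragments from regions with peaks of both factors, accessible chromatin and putative binding sites. The sites were those of Dll, Sp1, Mad (Dpp pathway) and Pan (Wg pathway). Overlapping peaks inside the fragments are thus a condition of their choice and not a result.

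*elB* and *noc* encode closely related zinc finger proteins that act as transcriptional repressors and can recruit the corepressor Groucho. Both genes are known to be active in the leg and wing primordia, where they are needed to form appendages and to keep genes of the body wall off. Dll, a homeodomain protein, specifies the distal leg, and Sp1, a zinc finger protein of the Sp family, acts with it in leg specification and growth. A gene that is patterned along the limb is often read through several separate *cis*-regulatory modules (CRMs), and binding of both factors at a CRM is the input that the peaks were meant to find.

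The Dll chromatin came from *yw* larvae and was precipitated with a goat anti-Dll antibody, in 3 ChIP libraries with 1 input library. The Sp1 chromatin came from Sp1-GFP (BAC) larvae and was precipitated with a rabbit anti-GFP antibody, also in 3 ChIP libraries with 1 input library. These larvae carry a GFP-tagged *Sp1* in a bacterial artificial chromosome at landing site VK00033, so Sp1 was measured as the tagged transgenic protein. All larvae were wandering, in the third instar, each pool held 100 of them, and all 6 leg discs of a larva were used, so the values are averages over all leg pairs and all cells of the disc. The labels list input as the only control, with no precipitation from untagged larvae. A peak is given by its position and by a score, the −log10 of its q value against input, which is the caller's confidence that the peak exceeds input and not a height in reads. Both lists begin at a score of 4.00. Calling was done on merged libraries, which leaves no replicate spread to report, and no comparison below has a test. Read counts and depth are not part of the lists, and an absent peak says only that no call passed the threshold. Since the factors differ in antibody and in larvae, a Dll score and an Sp1 score are not comparable in size. The factors are therefore compared by the percentile rank of the score within each list, where 100 is the highest score. Where scores of both are printed or drawn together, each is a value of its own list.

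In the current RefSeq gene order, *elB* and *noc* are separated by 8 genes, of which 3 encode proteins. These are *Pburs*, a subunit of the hormone bursicon, *Cpr35B*, a cuticular protein gene, and *CG15283*. The other 5 are long noncoding RNA genes. In the dm3 transcript annotation the gene nearest to the peaks of *elB_In* was *elB*, that of *elB_LE* was *Pburs*, that of *noc_LE1* was *Cpr35B* and that of *noc_LE2* was *noc*. The assignment of *elB_LE* and *noc_LE1* to *elB* and *noc* thus follows the names of the fragments, and which gene each peak serves was not measured. The dm3 sequence and gene models were not used here, so no peak is placed in an exon, an intron or a promoter.

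The peaks of both factors lay in short stretches of the locus. When peaks of either factor at most 500 bp apart were joined, the 42 peaks formed 14 clusters, of which 8 held both factors, 5 held Dll alone and 1 held Sp1 alone. A shorter joining distance gave 19 clusters and a longer one gave 13. The 4 clusters with a fragment held 18 of the 42 peaks. All 4 held both factors, but their fragments were picked for peaks of both. No share of such clusters over the whole lists is given, so the 8 of 14 are not read as particular to the locus. Between the clusters lay long stretches without a peak, and the longest ran for 17185 bp from 14454484 to 14471669. Dll peaks covered 10.5% of the window, against 3.73% of arm 2L, and Sp1 peaks covered 3.98%, against 1.53%. The density was 208 Dll peaks per Mb, against 92.9 on the whole arm, and 142 Sp1 peaks per Mb, against 76.5. Of 988 windows of the same length laid side by side along the 5 large arms, 8.20% held at least as many peaks of both factors, and the highest counts in one window were 66 for Dll and 50 for Sp1. The locus was thus denser than its arm, but many stretches of the genome were as dense. As the window was drawn around places with peaks, a high density is in part built into its choice.

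**Figure D1:**
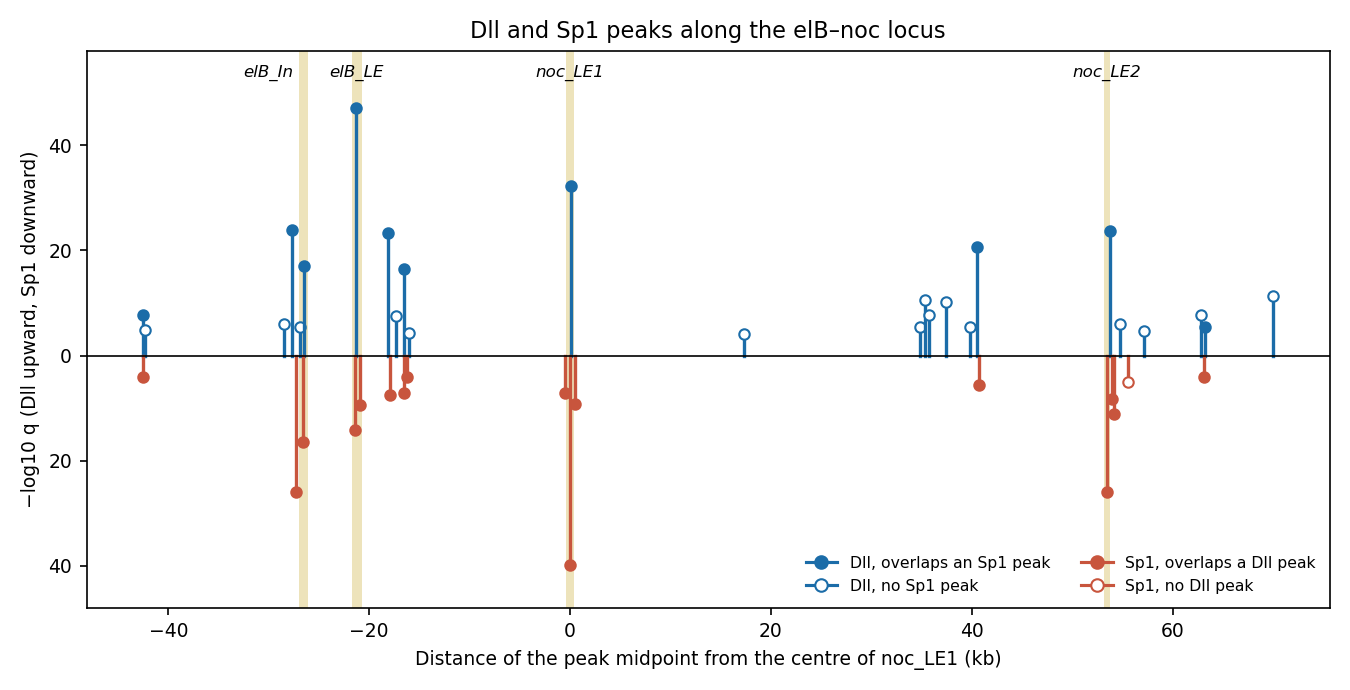
Map of the 25 Dll peaks (upward, blue) and 17 Sp1 peaks (downward, red) of the window, each drawn at its midpoint in kb from the centre of *noc_LE1* with the height of its score (−log10 q). Filled points overlap a peak of the other factor, open points do not, and shaded bands are the 4 reporter fragments. The Dll peak of 47.07 at *elB_LE* and the Sp1 peak of 39.77 at *noc_LE1* stand highest in their lists at this locus.

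Of the 17 Sp1 peaks, 16 overlapped a Dll peak by at least 1 bp (94.1%, 95% Clopper-Pearson interval 71.3% to 99.9%, counting error only). In the whole Sp1 list 72.1% of peaks did, which lies inside this interval. The intervals here and below treat peaks as independent, although these 16 Sp1 peaks met only 10 Dll peaks. Whether a share lies inside one is thus a description and not a test. The only Sp1 peak without Dll, from 14492505 to 14492657, scored 5.02 and lay 520 bp from the nearest Dll peak. Of the 25 Dll peaks, 10 overlapped an Sp1 peak (40%, interval 21.1% to 61.3%), close to the 43.1% of the whole Dll list. Both shares count peaks in the fragments, which were picked for such overlap. Among peaks that touched no fragment, 11 of 12 Sp1 peaks (91.7%, interval 61.5% to 99.8%) overlapped Dll. For Dll peaks it was 6 of 20 (30%, interval 11.9% to 54.3%), and these intervals also include the shares of the whole lists. The 11 include the Sp1 peaks beside *noc_LE1* and *noc_LE2*, whose Dll peaks cover these fragments. The Sp1 share is therefore not free of the choice of fragments. In 15 of the 16 overlapping pairs the Sp1 peak lay wholly within the Dll peak, as it did in 80.1% of all pairs of the lists. The exception was the Sp1 peak from 14409449 to 14409929, which passed the end of its Dll peak and shared 97.7% of its length with it. Shared sequence made up 96.6% of the Sp1 peaks of the window in bp and 36.6% of the Dll peaks, against 76.1% and 27.7% over the whole lists. When the shared stretch had to span 50% of both peaks, only 2 Dll and 2 Sp1 peaks were paired, since the Sp1 peaks were short beside the Dll peaks that held them. Sp1 peaks are also the shorter in the whole lists, with a median of 130 bp against 293 bp for Dll. The share of the whole lists under this rule is not given here.

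Of the Dll peaks, 4 held more than 1 Sp1 peak, which is 16% of the 25 (interval 4.54% to 36.1%), against 11.0% of the whole list. These were the Dll peaks at *elB_LE*, at *noc_LE1*, at *noc_LE2* and from 14420221 to 14420850. The other 6 overlapped Dll peaks each met 1 Sp1 peak.

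The highest Dll peak of the locus covered *elB_LE*. This fragment of 965 bp (2L, 14415305 to 14416269) lay wholly inside a Dll peak of 1460 bp, from 14414959 to 14416419, which scored 47.07. Only 7 peaks stood above it in the Dll list, so its percentile rank was 99.9. Sp1 calls at the same place ranked lower in their own list and came as 2 peaks with 105 bp between them. The first, from 14415225 to 14415937, scored 14.24 at percentile 90.4 and covered 65.6% of the fragment, and the second, from 14416042 to 14416214, scored 9.49 at percentile 74.4 and covered 17.8%. The Dll peak ran past the fragment by 345 bp on one side and 150 bp on the other. The same fragment thus held the 8th peak of one list and the 949th peak of the other.

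At *noc_LE1* both factors ranked near the top of their lists. The fragment of 733 bp (2L, 14436665 to 14437397) lay inside a Dll peak of 1714 bp, from 14436314 to 14438028, which scored 32.30 at percentile 99.2. This was the longest Dll peak of the window. The Sp1 peak from 14436720 to 14437376 scored 39.77 at percentile 99.5, the 45th of its list, and covered 89.5% of the fragment. The middle of this Sp1 peak was 17.5 bp from the middle of the fragment. Smaller Sp1 peaks flanked it inside the same Dll peak but outside the fragment. One of 83 bp with a score of 7.03 ended 112 bp before the fragment, and one of 253 bp with 9.26 began 42 bp after it.

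*noc_LE2* likewise lay in a single Dll peak with 3 Sp1 peaks, and the Dll and Sp1 peaks over the fragment scored lower than those over *noc_LE1*. The fragment of 601 bp (2L, 14490225 to 14490825) lay inside a Dll peak of 1283 bp, from 14490117 to 14491400, which scored 23.75 at percentile 96.7. Its Sp1 peak, from 14490286 to 14490796, scored 26.03 at percentile 98.1 and covered 84.9% of the fragment. Here the Dll peak ran on for 575 bp beyond one end of the fragment, and this stretch held both other Sp1 peaks, of 203 bp each, on the same side of the fragment. The nearer began 38 bp past the fragment with a score of 8.32, and the farther 315 bp past it with 11.09, at percentiles 67.9 and 82.1. The fragment therefore took in the highest of the 3 Sp1 peaks in this Dll peak and left out the others.

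*elB_In* differed from these fragments in that its peaks were short and higher peaks of both factors lay just outside it. The fragment of 965 bp (2L, 14410006 to 14410970) overlapped a Dll peak of 445 bp, from 14410308 to 14410753, which scored 17.01 at percentile 90.1. A small Dll peak of 135 bp with a score of 5.44 lay beside it. The Sp1 peak, from 14410316 to 14410584, scored 16.45 at percentile 92.9. Dll peaks covered 60.1% of the fragment and Sp1 peaks 27.8%, against 100% and at least 83.4% at each of the others. A Dll peak of 1103 bp with a score of 23.93, from 14408815 to 14409918, ended 87 bp before the fragment. The Sp1 peak that it met, from 14409449 to 14409929, scored 26.03 and ended 76 bp before the fragment. These neighbours ranked at percentiles 96.8 and 98.1, above the peaks inside *elB_In*.

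**Figure D2:**
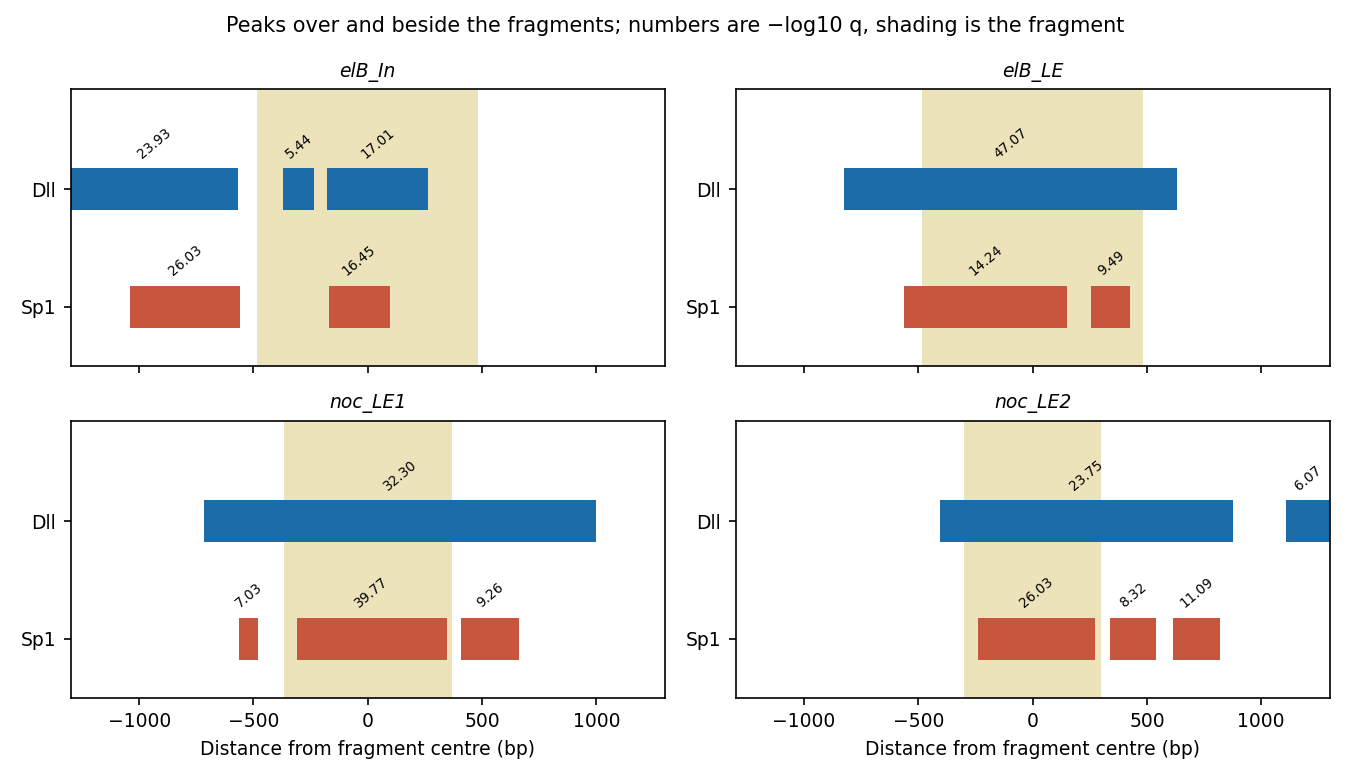
Dll peaks (blue bars) and Sp1 peaks (red bars) within 1300 bp of the centre of each fragment, drawn to scale in bp, with the score (−log10 q) over each bar, and bars that reach the edge of a panel continue beyond it. Shading marks the fragment, and the peaks of 23.93 and 26.03 lie just outside *elB_In*.

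Set against 18 other reporter fragments of the study measured in the same way, *elB_LE* had the highest Dll peak and *noc_LE1* the highest Sp1 peak of these 22. The tested enhancer *vnE* was not analysed here and has no place in this order. *noc_LE1* was second for Dll, while *elB_LE* was the 13th for Sp1. *noc_LE2* was the 7th for Dll and the 5th for Sp1, and *elB_In* the 12th and the 11th. The best Dll peaks of the 18 other fragments ran from 4.36 to 30.58 with a median of 16.41, and their best Sp1 peaks from 4.04 to 33.41 with a median of 14.38. In the window the best Dll peaks ran from 17.01 to 47.07 and the best Sp1 peaks from 14.24 to 39.77, so 2 of the 4 fragments lay above the range of the others for Dll and 1 for Sp1. The share of a fragment covered by both factors was 83.4% at *elB_LE*, 89.5% at *noc_LE1*, 84.9% at *noc_LE2* and 27.8% at *elB_In*. Elsewhere it ran from 23.3% to 99.6% with a median of 67.4%. The length of the fragments differs, which bears on these shares.

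**Figure D3:**
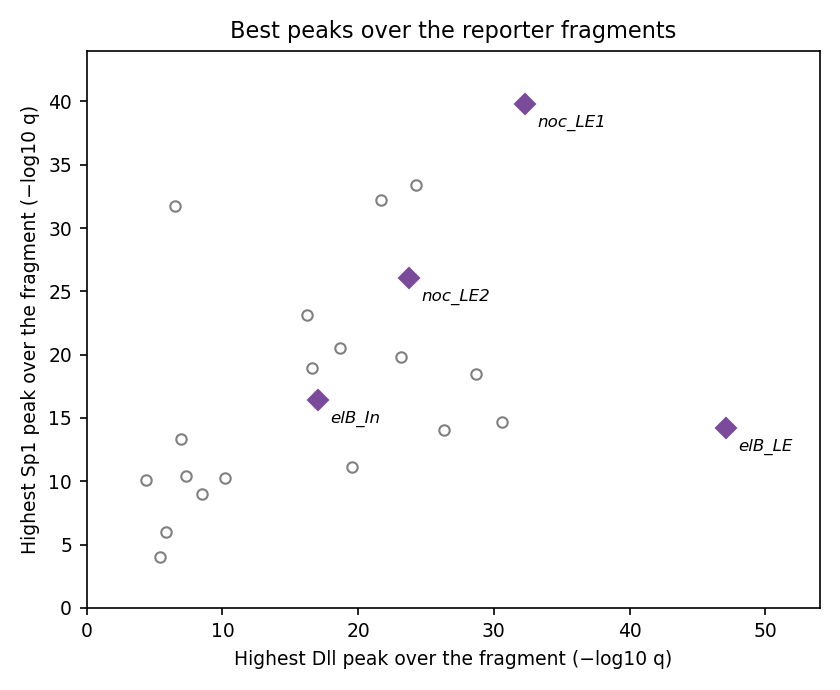
Highest Dll peak (x axis) and highest Sp1 peak (y axis) over each of the 22 reporter fragments compared, *vnE* not included, both as scores (−log10 q) in their own lists. Diamonds are the 4 fragments of the *elB* and *noc* window and open circles the 18 others. *elB_LE* lies far to the right at 47.07 and *noc_LE1* at the top at 39.77.

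Peaks in the top 10% of a list by score lay mostly in the fragments. Of the 25 Dll peaks, 7 were in the top 10% of their list (28%, interval 12.1% to 49.4%), a limit that 10.1% of the whole list passed. Of the 17 Sp1 peaks, 5 were (29.4%, interval 10.3% to 56.0%), against 9.89% of the list. Among peaks that touched no fragment the numbers were 3 of 20 for Dll and 1 of 12 for Sp1, with intervals of 3.21% to 37.9% and 0.211% to 38.5% that both include the share in the list. The peaks in the fragments, around which the window was drawn, gave 4 of the 7 and 4 of the 5. The middle peak of the window ranked at percentile 55.5 for Dll and 67.9 for Sp1.

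The 3 Dll peaks of high rank outside the fragments were the one beside *elB_In* described above, one between *elB_LE* and *noc_LE1*, and one between *noc_LE1* and *noc_LE2*. The first of the latter pair, from 14418557 to 14419330, scored 23.31 at percentile 96.6 and lay 2138 bp past the Dll peak of *elB_LE*. It was followed by Dll peaks of 7.47, 16.38 and 4.34, and together they made a cluster of 2465 bp, the widest of the locus. Sp1 was called 3 times in this cluster, but only at 7.49, 7.03 and 4.16, so the Dll peaks of 23.31 and 16.38 were paired with Sp1 peaks at percentiles of 60.1 and below. The other, from 14477061 to 14478146, had a Dll value of 20.75 at percentile 94.6 over 1085 bp. A single Sp1 peak of 112 bp with a score of 5.52 lay in it and made up 10.3% of its length. Of all Dll peaks that overlapped an Sp1 peak, 3.07% shared so small a part of their length. In the other 9 overlapped Dll peaks of the window the shared part ran from 42.5% to 71.4%.

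The stretch between *noc_LE1* and *noc_LE2*, which lie 52827 bp apart, held mostly Dll calls. Apart from the 112 bp peak it held no Sp1 call between the clusters of these fragments. In the whole list only 43.1% of Dll peaks overlapped an Sp1 peak, so Dll peaks without one are common. An absent Sp1 call may also be a weak one. A group of 4 Dll peaks stood from 14471669 to 14474572, with scores of 5.44, 10.59, 7.68 and 10.12, and the nearest Sp1 peak was 3139 bp or more from each. A lone Dll peak of 4.11, from 14454315 to 14454484, was the lowest of the window and lay 16623 bp from any Sp1 peak. Beyond *noc_LE2*, a Dll peak of 775 bp from 14506673 to 14507448 scored 11.42 at percentile 76.2. It was the highest Dll peak of the window without Sp1, and the nearest Sp1 peak was 6453 bp away.

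Dll peaks without Sp1 were of lower rank and shorter than those with it. The 15 without it had a median score of 5.98, from 4.11 to 11.42, and were 97 to 775 bp long with a median of 166 bp. The 10 with Sp1 had a median score of 22.03, from 5.42 to 47.07, and were 188 to 1714 bp long with a median of 929 bp. The ranges overlapped, and the median percentiles were 38.0 and 95.6. In the whole list they were 38.0 and 69.9, so the order was the same genome-wide. Longer peaks are met by another list more often, and the part of length in this difference was not tested. Of the 15 unpaired Dll peaks, 6 lay within 500 bp of an Sp1 peak, and 6 lay more than 3000 bp from one. For these distances no share of the whole list is given, so they are not read as particular to the locus. Of the 11 Dll peaks of the window that scored at least 10, 3 had no Sp1 peak of any score (27.3%), against 28.7% of such peaks in the list.

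**Figure D4:**
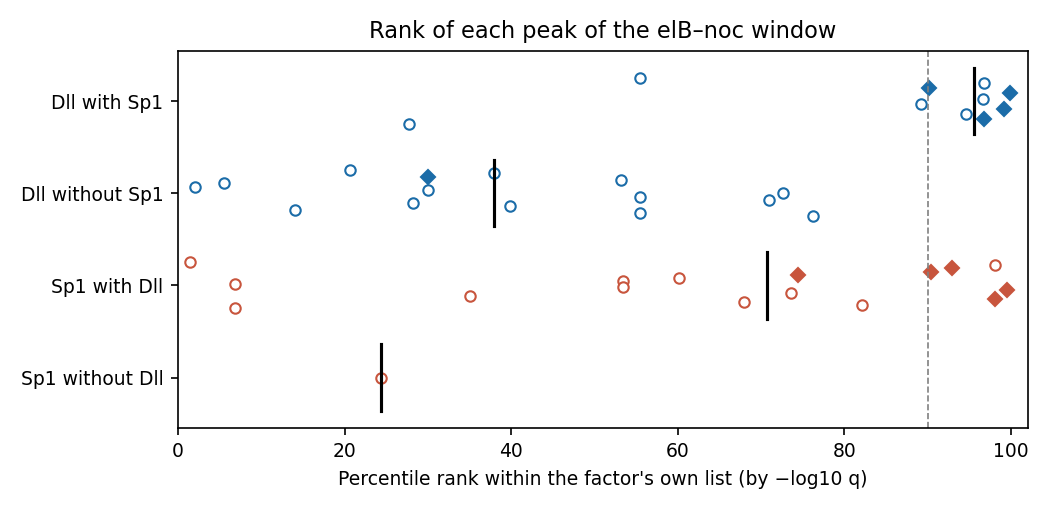
Percentile rank of each peak of the window within its own list by score, with Dll in blue and Sp1 in red, split by overlap with the other factor, where vertical position within a row only separates points. Filled diamonds overlap a reporter fragment, open circles do not, black bars are medians (95.6, 38.0, 70.8 and 24.4 from top to bottom) and the dashed line marks the top 10%.

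Where both factors were called, higher Dll peaks tended to hold higher Sp1 peaks. Over the 10 overlapped Dll peaks, each with its best Sp1 peak, Spearman's rho of the scores was 0.78. Over the 5304 such peaks of the list it was 0.34. Taking the best favours Dll peaks that hold several Sp1 peaks. With every overlapping pair counted, rho was 0.63 over the 16 pairs of the window and 0.22 over the 7195 pairs of the lists. These are descriptions over peaks that share the same pooled libraries, and 4 of the 10 lie in fragments picked for both factors. *elB_LE* departed from this order, with the highest Dll peak of the 10 and the fifth Sp1 value.

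The remaining peaks of the window scored 7.68 or less. On the *elB* side, a Dll peak of 190 bp with a score of 7.68, from 14394423 to 14394613, held an Sp1 peak of 93 bp at 4.00, the lowest value in the Sp1 list, with a Dll peak of 4.94 beside it. A Dll peak of 5.98, from 14408479 to 14408611, opened the *elB_In* cluster. On the *noc* side, a Dll peak of 5.42, from 14500124 to 14500312, held an Sp1 peak of 4.16 and stood beside a Dll peak of 7.68. Dll peaks of 6.07 and 4.58 past *noc_LE2* had no Sp1, nor had one of 5.43 beside the Dll peak of 20.75, between *noc_LE1* and *noc_LE2*. The peaks just outside the window were of the same kind on the *elB* side, with 5.18 for Dll at 2762 bp and 4.00 for Sp1 at 3408 bp from its edge. On the other side the first Dll peak, of 5.77, began 1357 bp past the edge, and the first Sp1 peak, of 21.52, began 21235 bp past it.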

How the data were processed

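Chromatin of leg imaginal discs was sequenced after precipitation of Dll or of GFP-tagged Sp1, with input as control. The authors aligned the reads to dm3 with the Burrows-Wheeler Aligner (version not given in the sources used here) and called peaks with MACS2 2.0.9 on merged libraries. The methods speak of triplicate pools and of merged duplicates, so how many libraries entered each list was not settled. The deposited −log10 q value of each peak was used as given, to rank peaks within a list. Starts were read as counted from 0, and fragment positions, taken from the study's list of constructs, as counted from 1.

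The work started from the peak lists. Python 3.11.15 was used, with pandas 2.3.3, numpy 2.4.6 and scipy 1.17.1. Overlap meant at least 1 bp, and ties took their average rank. Shares have 95% Clopper-Pearson intervals, which treat peaks as independent. The overlap, joining and ranking code was tested on simulated data. The window and its members were chosen with earlier results of these data known. All 42 peaks could be named, since each list had under 30 in the window, with those over fragments, in the top 10%, longest, or highest without the other factor described first. Alternatives changed the score minimum, window, joining distance, overlap and coordinate origin. Gene order came from RefSeq (Release 6), without coordinates. No genome of the dm3 build was used, so motifs, promoters and proteins were not analysed here.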

Additional observations from a re-analysis of the deposited data

How the results depend on the processing

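The main counts were 25 Dll and 17 Sp1 peaks in the window, with 10 Dll and 16 Sp1 peaks overlapping the other factor. With both lists cut at a −log10 q of at least 10, the window held 11 Dll and 6 Sp1 peaks, of which 5 and 6 overlapped. Against Sp1 peaks of any score, only 3 of these 11 Dll peaks were without Sp1. In the top 25% of each list it held 9 and 6, of which 5 and 6 overlapped. With peaks of a list within 500 bp joined it held 13 and 10, and 9 joined Sp1 peaks overlapped Dll. A shared stretch of 50% of the Dll and of the Sp1 peak left 2 Dll and 2 Sp1 peaks paired, and counting peaks at most 500 bp apart as overlapping gave 16 Dll peaks. The other 32 of 46 alternatives stayed within 1.5 times the main count, inside the 95% order-statistic interval of a median, or on the same peak. The share of Sp1 peaks with Dll was at least 88.2% under every alternative except the 50% overlap, where it was 11.8%. Shares of the whole lists under these alternatives are not given here. No peak covered 50% of *elB_In*, where the best covered 46.1% (Dll) and 27.8% (Sp1), so that alternative gave no value there. No paired analysis was possible because replicates of a factor were merged before peak calling, and for the same reason no replicate could be left out. Depth is unknown, so an absent peak may be a weak one.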
